A study of Rattus norvegicus with 23 samples.

Results

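The heat shock proteins and their co-chaperones were described in the rat area postrema, a sensory organ of the medulla outside the blood-brain barrier. The members were all genes whose single symbol in the array annotation begins with Hspa, Hspb, Hspd, Hspe, Hsph, Hsp90 or Dnaj, or with Cct and a digit. This rule found 71 of the 14218 genes with a single symbol, covered by 108 of 31099 probe sets, and each gene was read by the probe set with its highest mean over the 23 arrays. The families were HSP70 and HSP110 (12 genes), HSP90 (2), the Hspb symbols (9), the mitochondrial chaperonin pair Hspd1 and Hspe1 (2), the cytosolic chaperonin subunits named Cct (7) and the J-domain proteins named Dnaj (39, of which 4 are Dnaja, 12 Dnajb and 23 Dnajc). A further 6 probe sets carried a matching symbol beside others and were left out, so that Hspa8, Hsp90aa1 and Hspa1b were not read here.

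Heat shock proteins are molecular chaperones. HSP70 binds exposed hydrophobic stretches of client proteins in a cycle driven by ATP, J-domain proteins bring clients to it and trigger the hydrolysis, and the HSP110 proteins exchange the nucleotide. Small heat shock proteins hold unfolded clients without ATP, HSP90 matures kinases and receptors, and the chaperonins fold proteins in a closed chamber. In cells under proteotoxic stress, heat shock factor 1 induces the cytosolic set through heat shock elements in their promoters, and the unfolded protein response induces the set of the endoplasmic reticulum (ER). In brain, glia and vascular cells are known for induction of Hspb1 and of inducible HSP70 after injury.

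Each array held RNA pooled from the area postrema of 5 male rats. There were 5 arrays of SHR, the spontaneously hypertensive rat, and 5 of WKY, the Wistar Kyoto rat that serves as its normotensive comparison strain, both aged 10 to 13 weeks and with no treatment named in the labels. Sprague Dawley rats aged 10 to 12 weeks gave 4 control arrays, 5 arrays after 48 h of fasting and 4 after 72 h of dehydration. The labels name no heat or other proteotoxic treatment and no genetic change, and a pool hides the spread between its animals. Values are scaled signals with a trimmed mean of 100 on every array, array medians ran from 39.81 to 44.48, and their number limits the precision. Markers of catecholamine neurons, which this organ is known to hold, had a summed signal of 1028 to 1672 over 4 genes on the 23 arrays. Choroid plexus markers summed to 213 to 8143 over the Sprague Dawley arrays and to 102 to 281 over the SHR and WKY arrays.

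Heat shock factor 1 is known to bind heat shock elements, and the promoters of 4 heat-inducible members are printed, 3 with such an element and Hspa1a without one, because the largest change in the set was at 1 of them, Hspb1. The stretches are the 150 bases before the annotated gene start in RefSeq on the rat build GRCr8, 5′ to 3′ on the gene's strand. Capitals mark paired heat shock elements (GAANNTTC or TTCNNGAA, each of which reads the same on both strands).
Hspb1, chr12:26432302-26432451, minus strand: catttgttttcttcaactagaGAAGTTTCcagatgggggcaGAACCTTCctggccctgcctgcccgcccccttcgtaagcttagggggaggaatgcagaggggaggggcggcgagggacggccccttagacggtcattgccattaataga
Hspa1a, chr20:3859606-3859755, plus strand: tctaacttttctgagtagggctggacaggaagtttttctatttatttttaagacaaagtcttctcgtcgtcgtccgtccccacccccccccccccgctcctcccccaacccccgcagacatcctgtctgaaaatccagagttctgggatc
Dnajb1, chr19:41431142-41431291, minus strand: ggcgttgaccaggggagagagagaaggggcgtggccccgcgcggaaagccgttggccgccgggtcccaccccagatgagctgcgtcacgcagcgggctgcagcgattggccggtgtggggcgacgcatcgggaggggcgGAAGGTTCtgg
Hsph1, chr12:10427218-10427367, plus strand: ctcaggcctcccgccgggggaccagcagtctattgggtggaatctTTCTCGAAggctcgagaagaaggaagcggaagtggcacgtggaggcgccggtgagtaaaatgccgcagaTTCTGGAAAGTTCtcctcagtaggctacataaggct
Hspd1 and Hspe1 lie head to head, and their windows overlap by 211 bases. Both windows hold the same run of elements, 65 to 48 bases before the Hspe1 start. The run lies within the annotated span of Hspd1, so the Hspd1 window was taken from a start inside that span.
Hspd1 and Hspe1, chr9:64084262-64084279, plus strand: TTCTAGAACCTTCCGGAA

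Windows of 300 bases (250 before to 50 after the start) were listed for 60 members, and 17 of them (28.3%) held a paired element, against 15.85% of all 33469 windows. The triple element, in which a paired one is followed after NN by a further GAA or TTC in alternation, was in 5 member windows, those of Dnaja1, Hspd1, Hspe1, Hsph1 and Cct4, against 0.8% of all windows, and the run shared by Hspd1 and Hspe1 counts for both. The ER stress element (CCAAT, any 9 bases, then CCACG, on either strand), through which the unfolded protein response acts, was in the windows of Hspa5, Hsp90b1 and Dnajc3, 3 of 60 against 0.07% of all windows. A match is a description of these letters only, and no match in the Hspa1a stretch says nothing about its regulation.

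Across the 4 comparisons, 2 members passed the test: Hspb1, which was lower after dehydration, and Dnajc8, which was higher in SHR than in WKY. The test was limma's moderated test on log2(signal + 16), two-sided, with a Benjamini-Hochberg adjustment over 18625 probe sets and a threshold of 0.05. It could be made for 63 of the 71 members. The other 8, Dnajb13, Dnajb7, Dnajc21, Dnajc22, Hspa12b, Hspa1l, Hspb2 and Hspb3, had a mean below the 40th percentile of all probe sets. The brightest of these was Dnajc21 with a mean signal of 25.2, and the dimmest tested member was Hspb9 with 30.5.

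In SHR against WKY, 1 of 63 members passed, against 5.06% of all probe sets (942). At an unadjusted p below 0.05 there were 8 members (12.7%), against 17.2% of all probe sets. The members' log2 differences ran from -0.37 to 0.33 with a median of 0.04, and 57 of the 63 lay within 0.2 of zero. The median over all probe sets tested was 0.005.

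After fasting, 0 of 63 members passed limma's adjusted threshold, against 0.0215% of all probe sets (4), and 7 (11.1%) had an unadjusted p below 0.05, against 7.19% of all. Their log2 differences from control ran from -0.38 to 0.31 with a median of -0.02. After dehydration, 1 of 63 passed, against 0.166% of all probe sets (31), and 8 (12.7%) had an unadjusted p below 0.05, against 11.7%. These differences ran from -0.54 to 0.27 with a median of -0.03, and the median over all probe sets was -0.009. Fasting and dehydration share the 4 control arrays. In dehydrated against fasted rats, 0 of 63 passed limma's threshold, against 0.0322% (6), and 5 (7.94%) had an unadjusted p below 0.05, against 10% of all.

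The 95% interval of a member's log2 difference reached 0.16 to either side at the median in SHR against WKY, and 0.19, 0.2 and 0.19 in the 3 Sprague Dawley comparisons in the order above. On simulated arrays, a shift of 0.5 on the log2 scale was called for 80% of the probe sets shifted in SHR against WKY. The rate was 67% in fasted against control, 54% in dehydrated against control and 62% in dehydrated against fasted, each fit holding 18625 probe sets. A shift of 1 was called for 96% to 100%. The shifted probe sets were drawn from the brighter part of the arrays, with independent normal noise, and many were shifted at once. The real Sprague Dawley fits called only 4, 31 and 6 probe sets, which makes the adjusted threshold stricter. The rates can therefore overstate what those fits would find, above all for dim members. Members that did not pass are therefore given with their values, and a missed threshold does not show that the groups are alike.

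**Figure D1:**
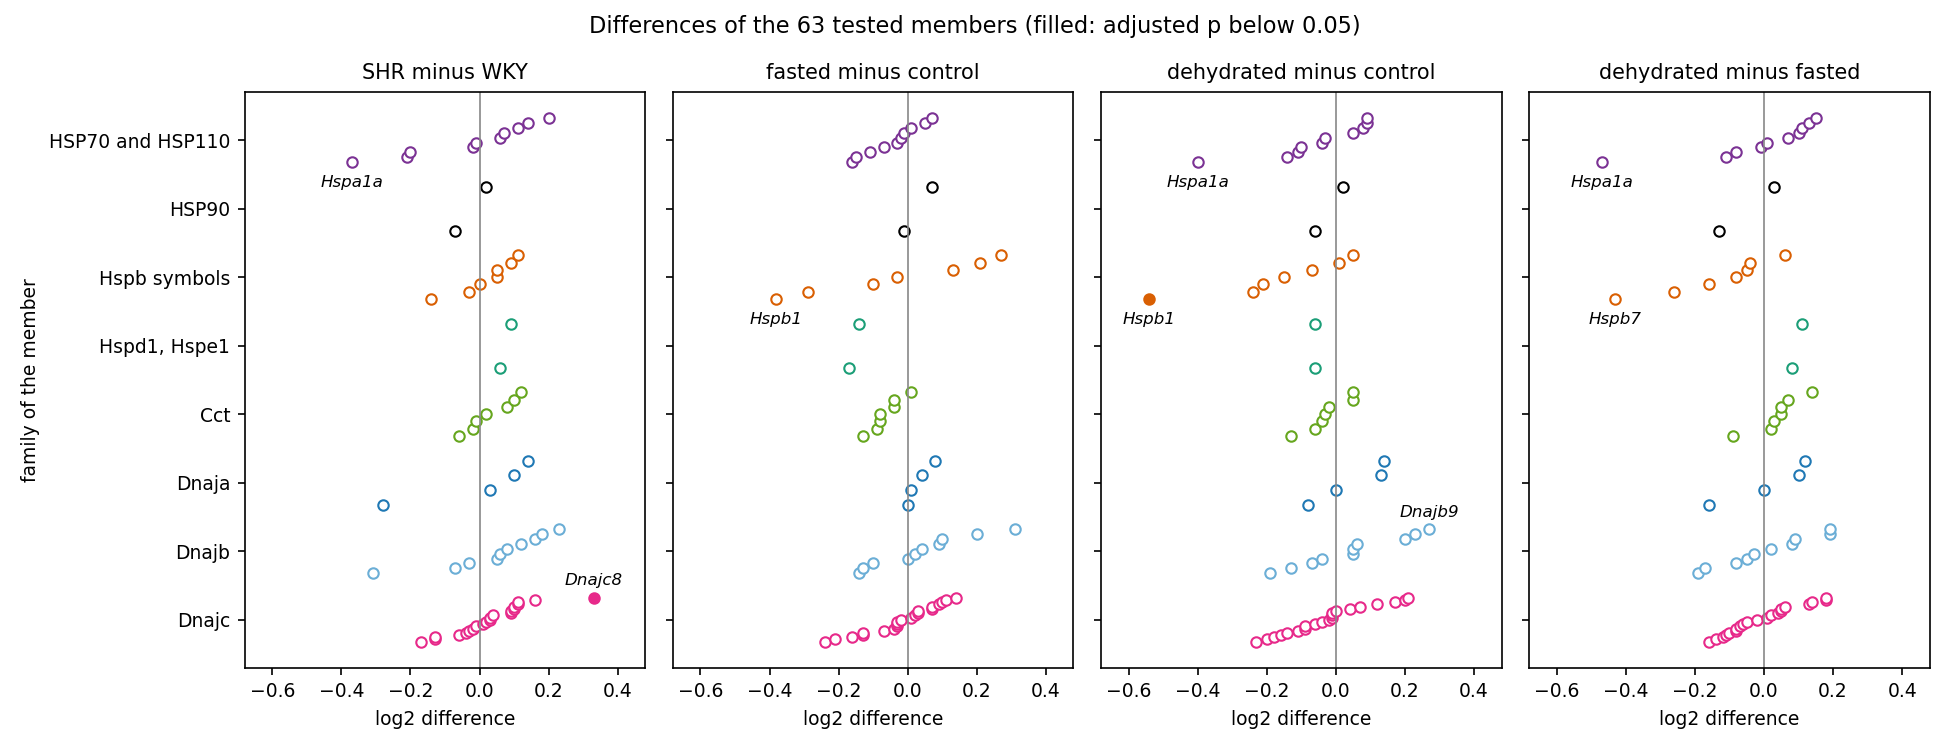
Log2 difference in signal (x axis) of each of the 63 tested members, 1 point per gene, grouped by family (y axis) and sorted within it, in the 4 comparisons; filled points passed the adjusted threshold. The 2 filled points are Dnajc8 at 0.33 in SHR minus WKY and Hspb1 at -0.54 in dehydrated minus control, and most points lie within 0.2 of zero.

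Hspb1 encodes a small heat shock protein that holds unfolded clients and binds actin filaments. Its signals in the control arrays 1 to 4 were 322.8, 345.5, 312 and 350.3. After dehydration they were 249.2, 215.8, 201.3 and 229. All 4 dehydrated arrays lay below all 4 control arrays, and Hspb1 fell by 0.54 on the log2 scale (SE 0.085, 95% interval -0.72 to -0.37), which is 1.45-fold lower, with an adjusted p of 0.00821 (limma). With each array of these groups left out in turn the adjusted p stayed between 0.00914 and 0.0478. With control arrays 3 and 4 as the only controls the log2 difference was -0.54 again and the adjusted p was 0.147.

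In the fasted arrays Hspb1 had signals of 272.5, 242.1, 264.4, 219.4 and 261.7. These also lay below every control array, with a log2 difference of -0.38 (SE 0.08, 95% interval -0.55 to -0.21), but the adjusted p was 0.164. Dehydrated and fasted arrays overlapped, and their log2 difference was -0.16 (SE 0.08, adjusted p = 0.522). Hspb1 in SHR was 259.3, 308.2, 289.5, 316.2 and 279, and in WKY 339.4, 307.7, 284.2, 390.1 and 289.2. The strains overlapped, with a log2 difference of -0.14 (SE 0.083, adjusted p = 0.445). The probe set of Hspb1 is the only one of that gene among the members, so that no other probe set could be set beside it.

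The mean of the fibroblast and meninges markers moved with the Hspb1 groups. Over the 6 markers measured (Col1a1, Col1a2, Col3a1, Dcn, Lum and Igf2, none listed at 0) the centred log2 mean was 0.18 in control arrays, -0.05 in fasted and -0.11 in dehydrated arrays, with summed signals of 3540 to 4599, 3423 to 3842 and 2961 to 3923. None of the 6 passed in dehydrated against control, where 5 differences were negative and 1 positive (0.18). There 5 had an unadjusted p below 0.05 (83.3%, against 11.7% of all probe sets). Igf2 came nearest with a log2 difference of -0.57 and an adjusted p of 0.0714 (limma). In fasted minus control 5 differences were negative and 1 positive (0.15). Over all probe sets 47.6% of the differences were positive in dehydrated minus control and 51% in fasted minus control. Microglia markers had centred means in the same order, of 0.08 in control, -0.02 in fasted and -0.05 in dehydrated arrays. Catecholamine neuron markers, at 0.04, 0.03 and -0.08, had this order too. So did endothelium markers, at 0.04, 0 and -0.04, and blood markers, at 0.1, -0.03 and -0.06. Neuron markers went the other way, from -0.05 in control to 0.05 in dehydrated arrays. Astrocyte, oligodendrocyte, choroid plexus and ependyma markers followed neither order. The part of these markers in the Hspb1 result was not tested. In pooled tissue, fewer cells of a type and less RNA per cell cannot be told apart.

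**Figure D2:**
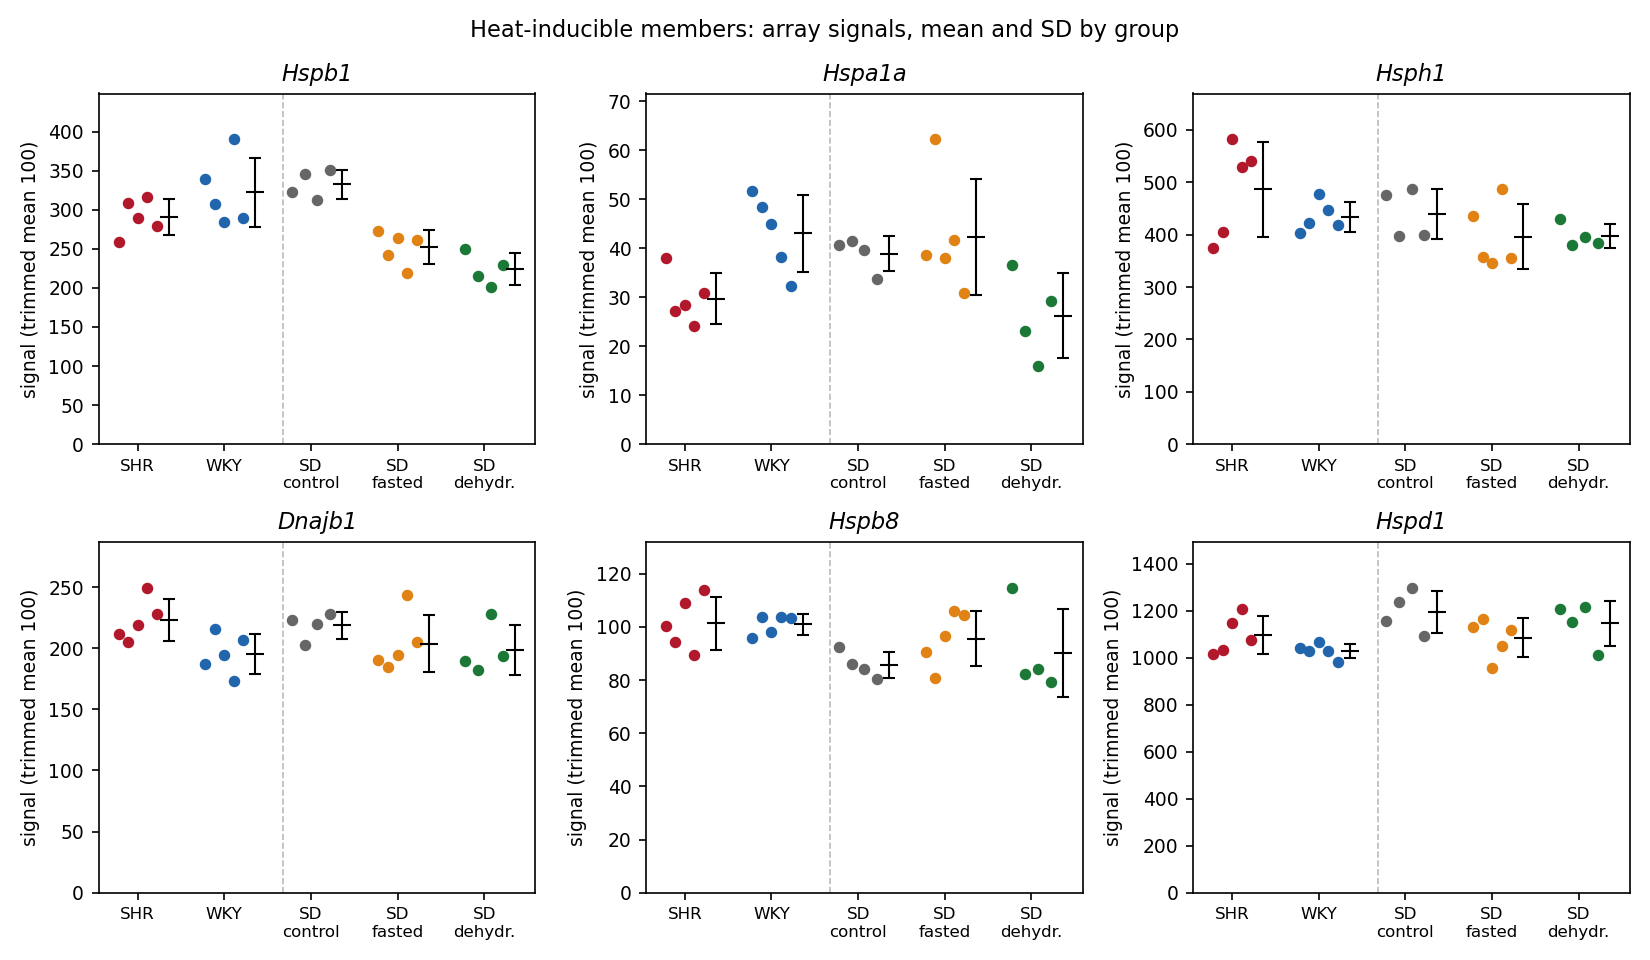
Signal of 6 heat-inducible members (y axis, linear, scaled to a trimmed mean of 100) on every array, by group (x axis); points are arrays in label order and the bar beside them is the mean with its SD, the dashed line parting the strain arrays from the Sprague Dawley (SD) arrays. Hspb1 is below every control array in all fasted and all dehydrated arrays, whereas the groups compared overlap for the other 5 genes.

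The other small heat shock proteins did not pass in any comparison. Hspb8, which works with a BAG co-chaperone in the clearance of aggregates, was 85.7 ± 5 in control (SD, n = 4), 95.6 ± 10.4 in fasted (n = 5) and 90.2 ± 16.5 in dehydrated arrays (n = 4), and 101.3 ± 10.1 in SHR and 100.9 ± 3.8 in WKY (n = 5 each). Dehydrated array 1 was at 114.7 and the other 3 at 79.4 to 84.2. Hspb6 was 105.1 ± 13.4, 102.5 ± 12.7 and 101 ± 25.9 in the same order of Sprague Dawley groups.

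Hspb7, a small heat shock protein best known from heart and muscle, had the signals 69.7, 64, 82.3 and 90.2 in dehydrated arrays and 104.1, 97.7, 110.8, 97.2 and 130.8 in fasted arrays. The groups did not overlap, as was the case for 3.23% of all probe sets in this comparison, and the log2 difference was -0.43 (SE 0.153) with an adjusted p of 0.369. The other Hspb7 probe set had a log2 difference of 0.37 in the same comparison (adjusted p = 0.36), so that the gene's probe sets disagreed in sign. Hspbap1, an Hspb1-associated protein, was 43.7, 44, 39.3 and 51.7 in control and 51.8, 41.9, 71.6, 66.9 and 56.2 in fasted arrays. All but fasted array 2 lay above every control array, and the log2 difference was 0.27 (SE 0.124, adjusted p = 0.68). Hspbp1, an exchange factor of HSP70 whose symbol the rule also takes in, had log2 differences of 0.09 in SHR minus WKY and -0.15 in dehydrated minus control, with adjusted p of 0.668 and 0.535. Hspb9 was dim, at 35.2 ± 4.7 in control, 26.1 ± 6.7 in fasted and 27.5 ± 3.7 in dehydrated arrays, and had -0.29 in fasted minus control (adjusted p = 0.68). Of the 5 small heat shock proteins tested, 4 had a negative difference in dehydrated minus control, where 47.6% of all probe sets had a positive one. The median of the 5 was -0.21, which is the Hspb7 value, and the other Hspb7 probe set had 0.31 there (adjusted p = 0.4 in limma). Of the 4 with a negative difference, 1 passed (Hspb1), against 0.166% of all probe sets. Hspb2 and Hspb3 were near the bottom of the range, with mean signals over the 23 arrays of 5.6 and 13.

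Hspa1a, the stress-inducible HSP70, was dim and had no passing difference. Its signals were 38, 27.2, 28.5, 24.2 and 30.8 in SHR and 51.6, 48.3, 44.9, 38.1 and 32.3 in WKY. The strains overlapped through SHR array 1 and WKY array 5, and the log2 difference was -0.37 (SE 0.115, 95% interval -0.61 to -0.12, adjusted p = 0.083). Without SHR array 1 the difference was -0.43 with an adjusted p of 0.0498, without WKY array 5 it was -0.44 with 0.0416, and over all alternatives tried the adjusted p ran from 0.0416 to 0.208.

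In Sprague Dawley rats Hspa1a was 40.7, 41.5, 39.7 and 33.6 in control, 38.5, 62.2, 37.9, 41.7 and 30.9 in fasted, and 36.5, 23, 16 and 29.2 in dehydrated arrays. Dehydrated array 1 lay within the control range and the other 3 below it. The log2 difference was -0.4 from control (SE 0.163, adjusted p = 0.342) and -0.47 from fasted (SE 0.154, adjusted p = 0.319). Fasted minus control was 0.07 (SE 0.154, adjusted p = 0.958).

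No other member of the HSP70 family passed in any comparison. Hspa9, the mitochondrial HSP70 mortalin, had log2 differences of -0.01 in SHR minus WKY, -0.01 in fasted minus control, 0.09 in dehydrated minus control and 0.1 in dehydrated minus fasted, at the probe set read here. Its dehydrated arrays were spread widely, at 478, 631.3, 488.8 and 404.1, against 446.3 to 483 in control, 441.8 to 487.7 in fasted, 394.2 to 473.3 in SHR and 431.3 to 477.8 in WKY arrays. The Hspa9 probe set ranked 3 by mean had -0.37 in dehydrated minus control (adjusted p = 0.238). Hspa2, known for its role in testis, was 79 ± 10.6 in SHR, 79.9 ± 6.1 in WKY, 67.6 ± 6.3 in control, 66.9 ± 16.2 in fasted and 61.7 ± 10.1 in dehydrated arrays. It had log2 differences in that order of -0.02, -0.03, -0.11 and -0.08. Hspa12a, an atypical HSP70 with brain expression, was 125 ± 17 in SHR and 145.2 ± 11 in WKY (n = 5 each, log2 difference -0.2, adjusted p = 0.253). Hspa14, a ribosome-associated HSP70, had 0.2 in SHR minus WKY and -0.16 in fasted minus control (adjusted p = 0.407 and 0.743), and Hspa13, of the microsomes, had -0.02 to 0.11 over the 4 comparisons. Hspa1l, which is known from spermatids, had a mean signal of 1.7 over the 23 arrays.

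Among the nucleotide exchange factors, Hsph1 was 374.9, 405.2, 581.9, 529.9 and 539.7 in SHR and 403.5, 422.5, 476.9, 447.7 and 418.2 in WKY. SHR arrays 3, 4 and 5 were above every WKY array and SHR array 1 was below every one, so that the log2 difference of 0.14 (SE 0.103, 95% interval -0.08 to 0.36, adjusted p = 0.542) is smaller than the spread within SHR. Hsph1 was 439.6 ± 47.6 in control, 396 ± 62 in fasted and 397.1 ± 22.4 in dehydrated arrays, with log2 differences from control of -0.15 (adjusted p = 0.761) and -0.14 (adjusted p = 0.616). The other Hsph1 probe set had -0.44 in dehydrated minus control (adjusted p = 0.231). Hspa4 was 166.7 ± 20.8 in SHR and 195.4 ± 17.4 in WKY, with a log2 difference of -0.21 (adjusted p = 0.19). Hspa4l had 0.07 in the same comparison and 0.08 in dehydrated minus control.

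Neither HSP90 gene that could be read passed in any of the 4 comparisons. Hsp90ab1, the constitutive cytosolic form, was 1421.6 ± 75.5 in SHR, 1495.5 ± 107.4 in WKY, 1513.9 ± 103 in control, 1592.1 ± 199.1 in fasted and 1447.2 ± 63.4 in dehydrated arrays. Fasted arrays 1 and 2, at 1762.3 and 1851.9, were above all other arrays. It had log2 differences of -0.07 in SHR minus WKY, 0.07 in fasted minus control, -0.06 in dehydrated minus control and -0.13 in dehydrated minus fasted, with adjusted p between 0.597 and 0.9. The other Hsp90ab1 probe set had 0.19 in SHR minus WKY (adjusted p = 0.119). Hsp90b1, the ER form known as GRP94, was 571.6 ± 50.1 in SHR, 563.5 ± 32.6 in WKY, 571.4 ± 59.1 in control, 565 ± 26.7 in fasted and 576 ± 22 in dehydrated arrays. Its log2 differences in the same order were 0.02, -0.01, 0.02 and 0.03, and the 95% intervals of the first 3 of these comparisons were -0.12 to 0.16, -0.16 to 0.14 and -0.14 to 0.17.

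No chaperonin passed in any comparison. Hspd1, which is HSP60, was 1096.9 ± 80.5 in SHR and 1029.9 ± 31 in WKY, and 1196.3 ± 90.2, 1085.5 ± 82.6 and 1146.7 ± 95.4 in control, fasted and dehydrated arrays. Its partner Hspe1, the lid of that chamber, was 933.3 ± 55.7 in control and 832.8 ± 96.4 in fasted arrays, with a log2 difference of -0.17 (SE 0.08, unadjusted p = 0.0492, adjusted p = 0.693 in limma). Fasted array 1 was at 992.7, inside the control range of 875.6 to 1008.7, and the other 4 at 755.4 to 850.9. The 7 Cct subunits (Cct2, Cct3, Cct4, Cct5, Cct6a, Cct7 and Cct8) of the cytosolic chaperonin TRiC, known for folding actin and tubulin, had log2 differences of -0.06 to 0.12 in SHR minus WKY, -0.13 to 0.01 in fasted minus control, -0.13 to 0.05 in dehydrated minus control and -0.09 to 0.14 in dehydrated minus fasted. These are the values at the probe set read here, where none had an unadjusted p below 0.05 in these 4 comparisons. Another Cct5 probe set had -0.15 in dehydrated minus control (unadjusted p = 0.0377, adjusted p = 0.397 in limma). In dehydrated minus fasted it had -0.19 (unadjusted p = 0.00791, adjusted p = 0.342). Other probe sets of Cct6a and Cct8 had -0.18 and 0.13 in dehydrated minus control (adjusted p = 0.638 and 0.643). Of the 9 chaperonin genes, Hspd1 and Hspe1 included, 8 had a negative difference in fasted minus control, with a median of -0.08. In dehydrated minus control 7 were negative, with a median of -0.04. Over all probe sets 51% and 47.6% of the differences were positive in these comparisons.

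As a list, 11 heat-inducible members were tested. In dehydrated minus control 1 passed in limma (Hspb1), against 0.166% of all probe sets, and the median was -0.06. There 7 differences were negative and 4 positive, beside 47.6% positive over all probe sets. An unadjusted p below 0.05 was found for 2 (18.2%, against 11.7% of all probe sets). In fasted minus control 0 passed in limma and the median was -0.07. There 2 had an unadjusted p below 0.05 (Hspb1 and Hspe1, 18.2%, against 7.19% of all). In SHR minus WKY 0 passed and the median was 0.07. There 2 had an unadjusted p below 0.05 (Hspa1a and Dnajb1, of opposite sign, 18.2%, against 17.2% of all). The 17 tested members with a paired heat shock element in their window had median differences of 0.05, -0.03 and -0.04 in SHR minus WKY, fasted minus control and dehydrated minus control, beside 0.03, -0.02 and -0.04 for the 37 with a window but no such element.

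**Figure D3:**
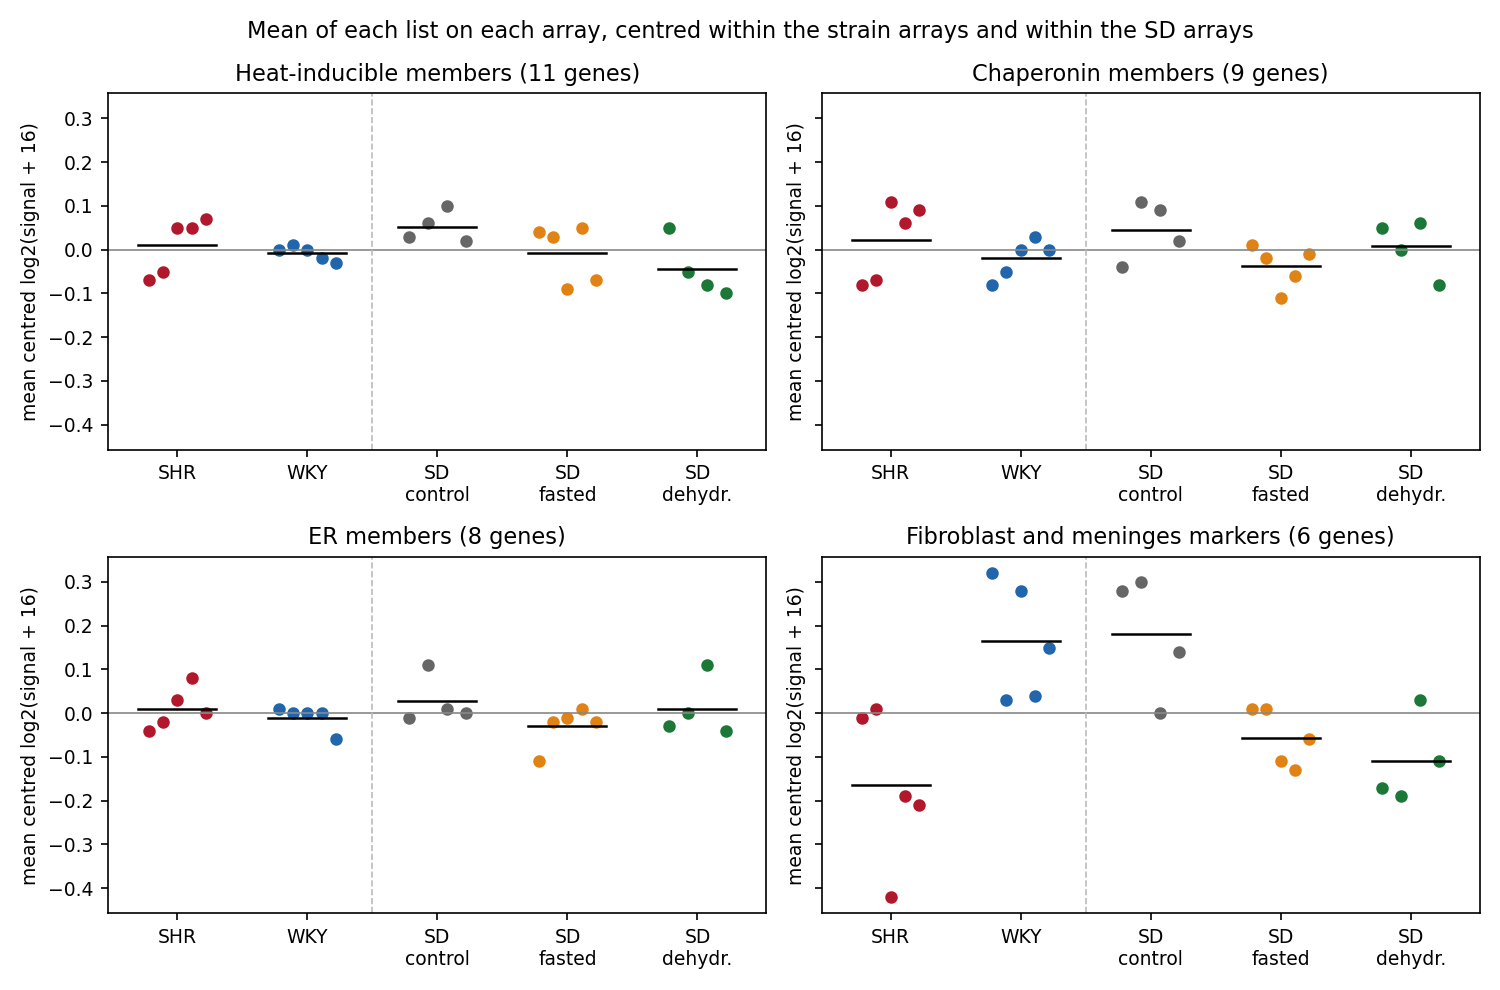
Mean over the genes of a list of log2(signal + 16), centred on the 10 strain arrays or on the 13 Sprague Dawley (SD) arrays (y axis), for each array by group (x axis); the line is the group mean. The heat-inducible, chaperonin and ER members stay between -0.11 and 0.11 on every array, while the fibroblast and meninges markers run from -0.42 to 0.32.

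Of the J-domain proteins, 35 of 39 were tested and Dnajc8 alone passed, in SHR minus WKY. Dnajc8 is a J-domain protein associated with splicing factors. Its signals were 314.4, 381.7, 433.8, 423.3 and 415.6 in SHR and 288.4, 302.5, 315.6, 336.9 and 299.4 in WKY. SHR arrays 2 to 5 lay above every WKY array and SHR array 1 within their range. The rise in SHR was 0.33 on the log2 scale (SE 0.08, 95% interval 0.16 to 0.5), which is 1.26-fold, with an adjusted p of 0.0196 (limma).

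The call of Dnajc8 rested on single arrays. It was lost without SHR array 3 (adjusted p = 0.0639), SHR array 4 (0.0555), SHR array 5 (0.0527), WKY array 1 (0.0575) or WKY array 5 (0.0509), although the log2 difference stayed between 0.29 and 0.4 with each array left out in turn. It was also lost in a fit with the 3′ to 5′ Gapdh ratio as a covariate (adjusted p = 0.0692), a measure of RNA length that was on average 0.208 in SHR and 0.126 in WKY on the log2 scale. All 7 microglia markers had a negative difference in SHR minus WKY on the same arrays, with 3 past the threshold (C1qa, Aif1 and C1qc) and summed signals of 1261 to 1721 against 1729 to 2010. The calls of Aif1 and C1qc were each lost in 10 alternatives, and both were lost without SHR array 3 (adjusted p = 0.0567 and 0.0889). All 6 fibroblast and meninges markers had a negative difference too, with 2 past the threshold (Col1a2 and Igf2). Their summed signals were 2027 to 2719 against 2905 to 3661. Over all probe sets 5.06% passed in this comparison and 51.7% of the differences were positive. No marker of either list was at 0, and their part in the Dnajc8 result was not tested. In Sprague Dawley rats Dnajc8 was 348.9 ± 25.4, 354.3 ± 33.6 and 349.4 ± 30.1 in control, fasted and dehydrated arrays, with log2 differences from control of 0.02 and 0.

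Dnajc15, a mitochondrial inner membrane protein, separated the strains without passing. It was 622.6, 675.1, 616, 620.1 and 633.6 in SHR and 573.5, 566.5, 546.5, 581.7 and 555.5 in WKY. All SHR arrays lay above all WKY arrays, and the log2 difference was 0.16 (SE 0.051, 95% interval 0.05 to 0.27, adjusted p = 0.086). It was the only one of the 63 members whose strains did not overlap, against 6.33% of all probe sets. In fasted minus control its log2 difference was -0.21 (adjusted p = 0.664).

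Dnaja3, a mitochondrial J-domain protein, was 95.5, 84.2, 94.8, 97.1 and 84.8 in SHR and 131.8, 120.1, 117.9, 112.2 and 90.3 in WKY. Only WKY array 5 lay in the SHR range, and the log2 difference was -0.28 (SE 0.089, adjusted p = 0.0944). Without that array it was -0.35 with an adjusted p of 0.0218, and over all alternatives the adjusted p ran from 0.0218 to 0.249. Dnajb12, an ER membrane protein, had -0.31 (adjusted p = 0.165) at signals of 28.8 ± 6.7 in SHR and 39.1 ± 4.6 in WKY, near the lower limit of what was tested. Dnajb1, the main HSP70 partner induced by heat, was 222.7 ± 17.2 in SHR and 195.4 ± 16.5 in WKY (log2 difference 0.18, SE 0.073, adjusted p = 0.218). It was 218.6 ± 11 in control, 203.7 ± 23.4 in fasted and 198.5 ± 20.4 in dehydrated arrays. The log2 differences from control were -0.1 and -0.13 (adjusted p = 0.843 and 0.595). The other Dnajb1 probe set had 0.08 in SHR minus WKY (adjusted p = 0.837 in limma). It had -0.25 in fasted minus control and -0.31 in dehydrated minus control (adjusted p = 0.737 and 0.45).

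Dnajb9, an ER J-domain protein that holds the stress sensor IRE1 inactive, was 505.9, 490.3, 405.3 and 465.8 in control and 537.7, 572, 615 and 543.6 in dehydrated arrays. The groups did not overlap, and the log2 difference was 0.27 (SE 0.096, 95% interval 0.07 to 0.48, adjusted p = 0.266). In fasted arrays Dnajb9 was 462.4, 534, 570.1, 655.6 and 477.6, which overlapped with control, and the difference was 0.2 (SE 0.091, adjusted p = 0.68). In SHR it was 703.3 ± 64.5 and in WKY 676.6 ± 21.1, with a log2 difference of 0.05 (adjusted p = 0.747). Of the 63 tested members, 5 had control and dehydrated arrays without overlap, against 6.68% of all probe sets tested. Dnajb13, which was too dim to be tested, did not overlap either, with means of 13.3 in control and 4.7 in dehydrated arrays. Dnaja1, Dnaja2 and Dnajb9 were on the higher side in dehydrated rats and Dnajc19 and Hspb1 on the lower side.

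Dnaja1 and Dnaja2 are J-domain partners of cytosolic HSP70. Dnaja1 was 906.6, 935.5, 892.4 and 902.8 in control and 1034.9, 1015, 942.2 and 1002.5 in dehydrated arrays, with a log2 difference of 0.13 (SE 0.069, adjusted p = 0.468). Dnaja2 was 734.7, 740.8, 770 and 693.4 in control and 788.3, 823.5, 852.9 and 771.8 in dehydrated arrays, with a log2 difference of 0.14 (SE 0.063, adjusted p = 0.411). The gap between the groups was small in both, from 935.5 to 942.2 for Dnaja1 and from 770 to 771.8 for Dnaja2. The other Dnaja1 probe set had 0.02 in dehydrated minus control (adjusted p = 0.957 in limma). In fasted arrays Dnaja1 was 920 ± 71.2 and Dnaja2 753.7 ± 16.7. Dnaja1 was 1084.5 ± 81.5 in SHR and 1012.1 ± 47.5 in WKY (log2 difference 0.1, adjusted p = 0.447). Dnajc19, part of the import motor of the mitochondrial inner membrane, was 380.6 ± 8.4 in control, 347 ± 27 in fasted and 355.6 ± 17.7 in dehydrated arrays. Neither fasted nor dehydrated arrays overlapped with control for this gene, at log2 differences of -0.13 (adjusted p = 0.704) and -0.09 (adjusted p = 0.641). In fasted minus control, Dnajc19 and Hspb1 were the 2 tested members without overlap, against 2.32% of all probe sets.

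Dnajc12, a co-chaperone of the aromatic amino acid hydroxylases that make monoamines, was 285.5, 309.1, 330.1 and 261.5 in control and 331.8, 393.4, 353.3 and 306.7 in dehydrated arrays. The groups overlapped, with a log2 difference of 0.21 (SE 0.091, adjusted p = 0.373). Dnajc5, the cysteine string protein of synaptic vesicles, had control signals of 544.3, 621.7, 898.8 and 669.2, and a log2 difference of 0.07 in dehydrated minus control (95% interval -0.24 to 0.39). Dnajc5 was 683.2 ± 102.9 in fasted, 714.6 ± 115.4 in dehydrated, 549.3 ± 28.1 in SHR and 563.4 ± 38.6 in WKY arrays. Dnajb5 was 47.1, 50.9, 31.5 and 36.6 in control and 56.7, 75, 57.5, 54.7 and 35.4 in fasted arrays, so that fasted array 5 lay within the control range and the other 4 above it (log2 difference 0.31, SE 0.144, adjusted p = 0.68). In dehydrated minus fasted, Dnajc6, the clathrin uncoating protein auxilin of neurons, had 0.18, Dnajb2, a neuronal protein that binds ubiquitin, -0.19, and Dnajc27, which joins a Rab-like GTPase to a J domain, -0.16, with adjusted p of 0.459, 0.461 and 0.463.

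Dnajc30, a mitochondrial J-domain protein, was 99.1, 112.8, 109.9 and 108.4 in control and 84.5, 69.3, 103.2 and 102.8 in dehydrated arrays, which overlapped, with a log2 difference of -0.23 (SE 0.109, unadjusted p = 0.0439, adjusted p = 0.411 in limma), the lowest of the J-domain genes tested in that comparison. Dnajb2 had -0.19 there (SE 0.09, unadjusted p = 0.0497, adjusted p = 0.427 in limma). Of all 35 J-domain genes tested, 23 differences were positive in SHR minus WKY, 19 in fasted minus control, 14 in dehydrated minus control and 17 in dehydrated minus fasted. Over all probe sets 51.7%, 51%, 47.6% and 47.3% were positive in the same order. The medians of the J-domain genes were 0.04, 0.01, -0.01 and 0. Dnajb6, which holds back the aggregation of polyglutamine proteins, and Dnajc7, which binds both HSP70 and HSP90, had 0.2 each in dehydrated minus control (adjusted p = 0.512 and 0.511). Dnajb4 had 0.12 in SHR minus WKY (adjusted p = 0.481), Dnaja4 0.14 (0.325) and Dnajc17 -0.17 (0.577). Dnajc13, an endosomal protein, had 0.11 there (0.503), and Dnajb14, of the ER membrane, had 0.19 in dehydrated minus fasted (0.695). Dnajc1, of the ER membrane, had -0.13 in SHR minus WKY (0.483) and -0.16 in dehydrated minus control (0.629). At the probe set read here, Dnajb3, Dnajc2, Dnajc4, Dnajc9, Dnajc11, Dnajc14, Dnajc18 and Dnajc24 lay between -0.14 and 0.14 in each of the 4 comparisons. Another Dnajc24 probe set had 0.28 in fasted minus control (adjusted p = 0.648 in limma) and 0.27 in dehydrated minus control (0.423). Another of Dnajc14 had 0.21 in fasted minus control (0.812), and another of Dnajc11 had -0.19 in dehydrated minus control (0.598).

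For 18 members more than 1 probe set was tested, and the probe sets of a gene often disagreed in sign where differences were small. The sign was not shared in 5 of the 18 in SHR minus WKY, 11 in fasted minus control, 5 in dehydrated minus control and 9 in dehydrated minus fasted. None of the 20 other probe sets tested between the strains, or of the 21 in each Sprague Dawley comparison, passed the adjusted threshold in limma. At an unadjusted p below 0.05 there were 2 of the 20 in SHR minus WKY, against 17.2% of all probe sets. Of the 21 there were 2 in fasted minus control, against 7.19% of all. There were 5 in dehydrated minus control, against 11.7%, and 4 in dehydrated minus fasted, against 10%.

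**Figure D4:**
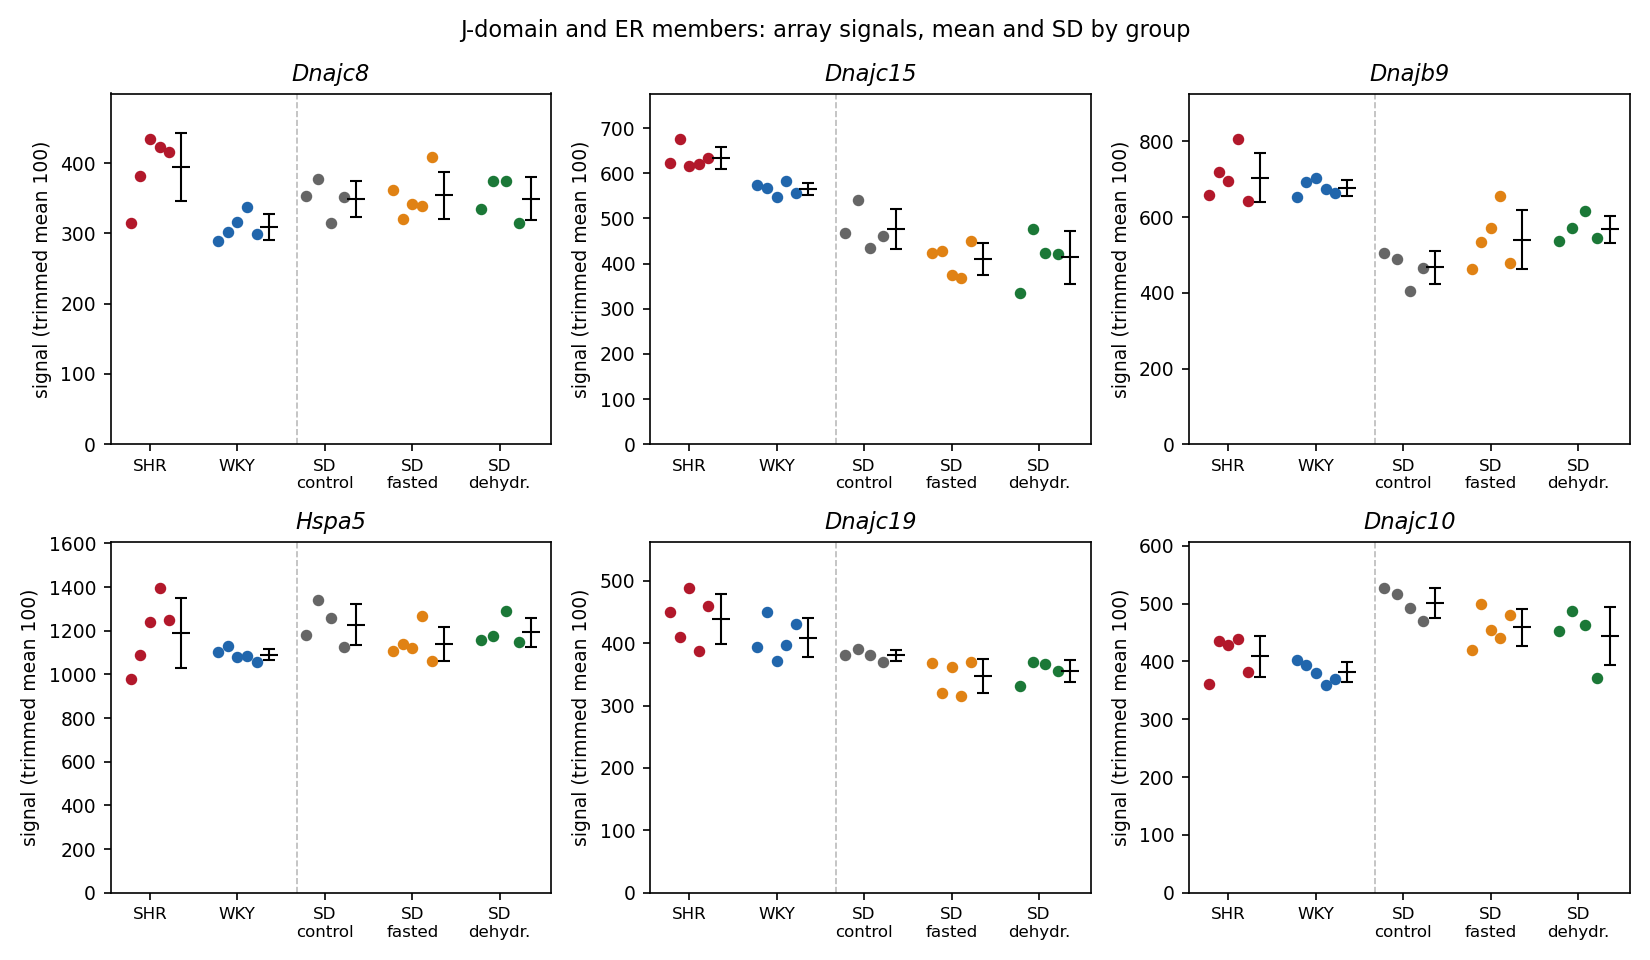
Signal of 5 J-domain members and of the ER HSP70 Hspa5 (y axis, linear, scaled to a trimmed mean of 100) on every array by group (x axis), with the mean and SD beside the points; the dashed line parts the strain arrays from the Sprague Dawley (SD) arrays. SHR arrays 2 to 5 of Dnajc8 lie above the WKY arrays, Dnajb9 in dehydrated arrays lies above control, and Dnajc15 is higher in every strain array than in any Sprague Dawley array.

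The ER members did not pass in any comparison. Hspa5, the ER HSP70 known as BiP, was 1181.9, 1342.8, 1258.8 and 1127.8 in control and 1156.9, 1176.5, 1290.9 and 1148.7 in dehydrated arrays, which overlapped. Its log2 differences were 0.11 in SHR minus WKY (95% interval -0.04 to 0.27), -0.11 in fasted minus control (-0.25 to 0.04) and -0.04 in dehydrated minus control (-0.19 to 0.11). In fasted arrays it was 1107.9, 1141.5, 1122.3, 1266 and 1059.8. Dnajb11, an ER partner of Hspa5, had log2 differences of -0.13 in fasted minus control and -0.04 in dehydrated minus control (adjusted p = 0.82 and 0.915). Dnajc10, an ER protein that reduces disulfides, was 501.2 ± 25.4 in control and 443.6 ± 50.4 in dehydrated arrays (log2 difference -0.18, adjusted p = 0.421). Dnajc3, an ER co-chaperone known as p58IPK, had -0.24 in fasted minus control (SE 0.127, adjusted p = 0.704). Of the 8 ER members tested, 3 differences were positive and 5 negative in dehydrated minus control, beside 47.6% positive over all probe sets. Their median was -0.04. The 7 mitochondrial members had medians of 0.09, -0.13 and -0.06 in SHR minus WKY, fasted minus control and dehydrated minus control. In these comparisons 0 of them passed in limma. An unadjusted p below 0.05 was found for 2 in SHR minus WKY (28.6%, against 17.2% of all probe sets) and 2 in fasted minus control (28.6%, against 7.19%). In dehydrated minus control there were 0, against 11.7%.

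Other genes of the folding machinery were counted in lists. Of 3 heat shock factors tested (of 4 listed), 0 passed in the 4 comparisons in limma. In dehydrated minus fasted 1 had an unadjusted p below 0.05, against 10% of all probe sets. Of 21 HSP90 and HSP70 partners, 1 passed, in SHR minus WKY, against 5.06% of all probe sets there. An unadjusted p below 0.05 (limma) was found for 5 partners in SHR minus WKY (23.8%, against 17.2% of all). It was found for 2 in fasted minus control (9.52%, against 7.19%). In dehydrated minus control there were 6 (28.6%, against 11.7%) and in dehydrated minus fasted 5 (23.8%, against 10%). The partner that passed was Chordc1, an HSP90-binding protein. Chordc1 was 328.5, 325.2, 347.2, 443.3 and 341.8 in SHR and 261, 290.1, 279.4, 268.2 and 270.6 in WKY. The strains did not overlap, and it was 0.36 higher in SHR on the log2 scale (SE 0.077, adjusted p = 0.00897), with an adjusted p of 0.00362 to 0.0294 over the alternatives. Stub1, the ubiquitin ligase that joins HSP70 to degradation, had -0.29 there with an adjusted p of 0.0563.

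In SHR minus WKY, 0 of 15 other chaperones passed in limma, but 12 differences were positive, beside 51.7% of all probe sets. There 7 of the 15 had an unadjusted p below 0.05 (46.7%, against 17.2% of all probe sets) and the median was 0.11. Among these, Pfdn2, a subunit of prefoldin, had 0.18 (adjusted p = 0.0701) and Trap1, the mitochondrial HSP90, 0.22 (adjusted p = 0.127), both named after their values were seen. In dehydrated minus control 1 of the 15 passed, against 0.166% of all probe sets. This was Serpinh1, the collagen chaperone of the ER known as HSP47. It was 365.7, 289.4, 335.5 and 359.7 in control and 207.2, 193.4, 237.4 and 284.8 in dehydrated arrays, without overlap, and fell by 0.53 on the log2 scale (SE 0.106, adjusted p = 0.0435). That call was lost in 13 of 21 alternatives, among them those without 1 of 6 arrays, with adjusted p of up to 0.208. The fibroblast and meninges markers, whose mean moved with Hspb1, are collagens and other matrix genes for the most part. Their part in the Serpinh1 result was not tested. Of 22 unfolded protein response genes, 1 passed in SHR minus WKY, against 5.06% of all probe sets. This was Derl1, a channel protein of ER degradation (0.29, adjusted p = 0.0407, passing in 7 of 21 alternatives). In that comparison 7 of the genes had an unadjusted p below 0.05 (31.8%, against 17.2% of all probe sets). In the Sprague Dawley comparisons 0 passed in limma. There 0 had an unadjusted p below 0.05 in fasted minus control (7.19% of all), 2 in dehydrated minus control (9.09%, against 11.7%) and 3 in dehydrated minus fasted (13.6%, against 10%). In dehydrated minus control 3 of the 22 differences were positive, beside 47.6% of all probe sets, and the median of the 22 was -0.06.

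The members varied more between arrays in SHR than in WKY. The SD of log2(signal + 16) was larger in SHR for 46 of the 63 tested members (73%), beside 52.9% of all probe sets, and its median over the members was 0.135 in SHR and 0.091 in WKY, beside 0.139 and 0.133 over all probe sets. Hspa5 showed this plainly, at 980.9, 1089.4, 1240.9, 1396.9 and 1248.5 in SHR and 1102.8, 1130.6, 1081, 1083.8 and 1057.7 in WKY. The Cct8 subunit was 322.9, 373.5, 460.2, 433.4 and 415.4 in SHR and 369.3 to 388.5 in WKY. In both genes, as in Hsph1, SHR arrays 1 and 2 were the low ones. The heat-inducible list had centred means of -0.07 and -0.05 on SHR arrays 1 and 2 and of 0.05 to 0.07 on arrays 3 to 5, and fibroblast and meninges markers were at -0.01 and 0.01 on the first pair and at -0.42 to -0.19 on the other 3. The part of these markers in the spread was not tested.

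Levels of 3 members did not overlap between the strain arrays and the Sprague Dawley arrays, 4.76% of 63 beside 3.48% of all 18625 probe sets kept, and all 3 were higher in the strain arrays. Dnajc15 was 546.5 to 675.1 on the 10 strain arrays and 333.9 to 540.1 on the 13 Sprague Dawley arrays. Hspe1 was 1021.5 to 1206.6 and 755.4 to 1008.7, and Dnajc30 was 116 to 155.2 and 69.3 to 112.8. The arrays of the first set are of other strains than those of the second, so strain and array set cannot be told apart, and no test was made.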

How the data were processed

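The members and gene lists were chosen with earlier results of these data known. The deposited values are linear intensity signals from Affymetrix Rat Genome 230 2.0 arrays, which the authors made with GCOS 1.2, per the submitters' processing notes, with the settings not stated there. They were used as log2(signal + 16), which understates folds of dim genes. Probe sets were named from the platform's annotation (20832 with 1 symbol, 436 with several, 9780 with none, 57 controls left out), and all 71 members had the same symbol in the GRCr8 gene table. Probe sets whose mean lay below the 40th percentile did not enter a fit. The strains were fitted on their 10 arrays and the Sprague Dawley groups together on their 13, with limma 3.58.1 in R 4.3.3 (lmFit, eBayes with trend and robust). Nothing in the labels says that replicate numbers pair the arrays. P-values measure the spread between pools, which may in part be technical. Members named are those that passed, the 5 with the smallest p in each comparison and a set of well-known chaperones, with up to 3 passing genes of each other list. Others named were chosen after their values were seen. The fit was tested on simulated data. Promoter sequences are from RefSeq (GRCr8). Tables and figures were made in Python 3.11.15 (pandas 2.3.3, numpy 2.4.6, matplotlib 3.10.9, scipy 1.17.1). Alternatives changed the normalization (quantile), the pseudocount (1 or 64), the filter (none, or the 60th percentile), the variance model (eBayes without trend and robust, or with array weights), the arrays fitted (all 23 together, each left out, the pair of groups alone, or control arrays 3 and 4 alone, since the labelling text of arrays 1 and 2 is shorter), the covariates (replicate block, Gapdh ratio) and the probe sets averaged per gene.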

Additional observations from a re-analysis of the deposited data

Results flagged for a closer look

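Single arrays stood far from their group, by the gap to the next array over the group's range, in 5 of 135 groups of named members, and chance alone gives about 1 in 20. Dnajc12 was 426 on SHR array 5, against 347.2 to 361.8 on the other SHR arrays. Hspbap1 on the same array was 65.3, against 38.4 to 44.1. Hspa2 was 69 on WKY array 4, against 82.1 to 83.3 on the other WKY arrays. Hspb7 was 125.8 on WKY array 3, against 86.9 to 94.9. Hspb8 was 114.7 on dehydrated array 1, against 79.4 to 84.2 on the other dehydrated arrays. None of these groups underlies a comparison that passed.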

How the results depend on the processing

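The number of members past the threshold stayed at 0 under all 22 alternatives for fasted minus control and all 21 for dehydrated minus fasted, as limma's adjusted test counts them. For dehydrated minus control it stayed at 1, Hspb1, in 20 of 21, and was 0 with control arrays 3 and 4 as the only controls, a fit with fewer samples. For SHR minus WKY it was 1 in 13 of 21. It was 0 with eBayes without trend and robust (Dnajc8 adjusted p = 0.053) and 0 with the 3′ to 5′ Gapdh ratio as a covariate, and the cause was not tested. With 1 array left out in turn it ran from 0 to 2 for SHR minus WKY, and stayed at 1 for dehydrated minus control and at 0 for the other comparisons. Replicate numbers share no stated source, and same-numbered arrays correlated in their deviations at -0.01 to 0.27 in SHR and WKY (2 of 5 best with their own number) and at -0.17 to 0.06 between Sprague Dawley groups. With the replicate block the members called were 1 for SHR minus WKY, 0 for fasted minus control, 1 for dehydrated minus control and 0 for dehydrated minus fasted, while the calls over all probe sets went from 942 to 1073, 4 to 3, 31 to 15 and 6 to 1. Over the alternatives that test single probe sets, calls ran from 698 to 1073 for SHR minus WKY, 0 to 6 for fasted minus control, 2 to 74 for dehydrated minus control and 1 to 10 for dehydrated minus fasted. With the probe sets of a gene averaged, 419 of 8530 genes were called in SHR minus WKY and 3 in dehydrated minus fasted. Over the 81 gene results, 1590 of 1705 alternative values kept direction and side of the threshold, 55 lost a call, 3 gained one, and 57 differences that did not pass changed sign. Signal near background limits what can be read for Hspa1a, Dnajb12, Dnajb3, Hspb9 and the 8 members left out of the tests.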
